A study of Mus musculus with 6 samples.

Results

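The open chromatin around 4 genes of the oligodendrocyte lineage, Olig1, Olig2, Nkx2-2 and Nkx6-2, was described from the peak lists of 6 ATAC-seq libraries. The genes were given by name, and their regions were found by position: peaks overlapping the annotated gene (GENCODE M21, GRCm38) or the 50 kb on either side were taken, and peaks of different libraries that shared at least 1 bp were merged into 1 region. Of 120143 merged regions in the genome, 37 fell in the 3 windows so defined, 15 around Olig1 and Olig2, 9 around Nkx2-2 and 13 around Nkx6-2. Each library contributed between 28 and 33 peaks to them.

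ATAC-seq uses a transposase that cuts and tags accessible DNA. All 6 libraries came from neural stem cell cultures of the subependymal zone of 10-week-old mice, and in all of them Srr2, one of the enhancers that lie 3′ of Sox2, had been deleted with CRISPR-Cas9 (Srr2del/del). Separate guide pairs gave independent mouse strains with the same deletion, kept on a shared genetic background. The labels do not say from which of these strains a culture came. Proliferating cultures (PROLIF) were taken at 2 days in vitro. Cultures at the onset of differentiation (DIFF) were taken 1 day after the mitogens had been withdrawn at that same point of 2 days, in medium with 2% fetal bovine serum. Each state had 3 libraries, numbered 1, 2 and 4. Wild-type cultures were not analysed here, so every comparison is between the states within the deletion. The lists held between 60006 and 88039 peaks, and their background pileup, which follows sequencing depth, ran from 2.85 to 3.63 reads in 5 libraries and was 6.01 reads in DIFF replicate 4. A deeper library can call weaker peaks.

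Olig1 and Olig2 encode related basic helix-loop-helix transcription factors that lie next to each other, and Olig2 in particular is needed for the specification of oligodendrocyte precursors. Nkx2-2 and Nkx6-2 encode homeodomain factors of the ventral neural tube, downstream of Sonic hedgehog signalling. Nkx2-2 takes part in the differentiation of precursors, and Nkx6-2 is known for its part in myelination.

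Promoters of the members are shown first. Of the 4 genes, 3 had an entry in the RefSeq promoter table (GRCm38.p6), Olig2, Nkx2-2 and Nkx6-2. The letters are those before the first base of the entry that an annotated exon covers, 5′ to 3′ on the strand of the gene. They span chr16:91225300-91225456 on the plus strand for Olig2. On the minus strand they span chr2:147186456-147186652 for Nkx2-2 and chr7:139582798-139583047 for Nkx6-2. Nkx2-2 has distal and proximal start sites. Its stretch lies between them, just upstream of the proximal ones and inside the annotated gene. Bases upstream of the distal start site of Nkx2-2 are not printed. The Olig2 stretch lies within region 4 of its window, the Nkx6-2 stretch overlaps region 10 and the Nkx2-2 stretch overlaps region 6, and the best peaks at the Nkx2-2 promoter lay in other regions (7 and 8). Regions are numbered within their window by rising coordinate. Capitals mark the words searched for, which are spelled out with the motif counts.
Olig2 promoter: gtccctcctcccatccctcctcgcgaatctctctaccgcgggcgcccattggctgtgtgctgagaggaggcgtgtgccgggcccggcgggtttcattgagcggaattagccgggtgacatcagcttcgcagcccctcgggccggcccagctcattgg
Nkx2-2 promoter: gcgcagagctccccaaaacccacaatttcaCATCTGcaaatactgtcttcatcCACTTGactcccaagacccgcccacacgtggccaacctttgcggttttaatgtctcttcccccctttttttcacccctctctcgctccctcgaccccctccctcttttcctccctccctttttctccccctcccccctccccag
Nkx6-2 promoter: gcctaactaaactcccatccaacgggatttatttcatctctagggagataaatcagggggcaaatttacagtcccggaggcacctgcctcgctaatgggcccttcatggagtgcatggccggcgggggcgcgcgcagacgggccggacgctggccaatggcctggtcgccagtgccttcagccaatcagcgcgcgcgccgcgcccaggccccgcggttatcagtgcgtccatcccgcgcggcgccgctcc
The Nkx6-2 stretch of 250 bases held 26 CpG dinucleotides, the Olig2 stretch of 157 bases held 14 and the Nkx2-2 stretch of 197 bases held 6. The low Nkx2-2 count belongs to the shortened stretch. Over the whole 300-base entries the counts were 32 for Nkx6-2, 25 for Olig2 and 17 for Nkx2-2. Within 100 bp of the summit, Nkx2-2 regions 6 and 8 held 19 and 20. Olig1-Olig2 region 4 held 17 and Nkx6-2 region 10 held 30.

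Of the 11 regions that were found in one state alone or ranked apart between the states, 5 are shown next as examples of each kind, each as 121 bases of the reference genome (GRCm38, plus strand) around the summit of its best-ranked peak. The first pair had a peak in every PROLIF library and in no DIFF library. The third had a peak in every DIFF library and in no PROLIF library. The last pair were open in all 6 libraries and ranked apart between the states. They were taken from chr2:147145057-147145177 (Nkx2-2 region 1), chr16:91280668-91280788 (Olig1-Olig2 region 12), chr7:139572818-139572938 (Nkx6-2 region 9), chr16:91266096-91266216 (Olig1-Olig2 region 8) and chr7:139530863-139530983 (Nkx6-2 region 1).
Nkx2-2 region 1, PROLIF-only: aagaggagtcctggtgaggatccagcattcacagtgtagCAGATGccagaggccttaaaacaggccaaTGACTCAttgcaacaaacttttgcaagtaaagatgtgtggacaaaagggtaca
Olig1-Olig2 region 12, PROLIF-only: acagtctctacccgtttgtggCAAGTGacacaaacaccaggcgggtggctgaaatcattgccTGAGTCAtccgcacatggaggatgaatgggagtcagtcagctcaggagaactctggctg
Nkx6-2 region 9, DIFF-only: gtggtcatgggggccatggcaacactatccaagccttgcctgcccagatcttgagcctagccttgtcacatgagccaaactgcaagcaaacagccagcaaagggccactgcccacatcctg
Olig1-Olig2 region 8, ranked higher in PROLIF: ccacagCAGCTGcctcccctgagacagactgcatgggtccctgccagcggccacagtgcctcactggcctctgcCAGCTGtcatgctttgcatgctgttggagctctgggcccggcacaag
Nkx6-2 region 1, ranked higher in DIFF: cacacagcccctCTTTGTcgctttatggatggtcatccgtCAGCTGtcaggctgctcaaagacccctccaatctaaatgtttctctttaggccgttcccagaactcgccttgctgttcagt
In these stretches the AP-1 word stood in both PROLIF-only regions, at positions 69 and 63 counted from the 5′ end, and in none of the other 3. CAGCTG occurred at positions 7 and 75 of Olig1-Olig2 region 8 and at position 41 of Nkx6-2 region 1.

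A peak in all 6 libraries was the most frequent pattern among the regions of these genes. Of the 37 regions, 21 (56.8%) had a peak in all 6 libraries, beside 33.4% of all regions of the genome. The Olig1-Olig2 locus had 10 of 15 such regions, the Nkx2-2 window 5 of 9 and the Nkx6-2 window 6 of 13. Of the other 16, 2 were PROLIF-only (5.41%, beside 1.78% of all regions), 2 were DIFF-only (5.41%, beside 3.47%), 5 had a peak in 1 library and 7 had another mixture. The counts of 2 are too small to be set against the genome. The PROLIF-only count was 4 without PROLIF replicate 4, where fewer libraries had to hold a peak and no share of the genome was computed. Cutting every list to the 60006 strongest peaks, the length of the shortest, or asking that peaks cover 50% of a region lowered the DIFF-only count to 1. The 50% cover also lowered the number of regions in all 6 libraries to 15.

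Peaks were ranked by −log10 p within their own list, because the values of different lists are not normalised to each other, and a percentile of 100 is the strongest peak of a library. The regions shared by all 6 libraries had a median percentile of 82.0 in the Olig1-Olig2 locus, 81.4 in the Nkx6-2 window and 50.6 in the Nkx2-2 window, beside 70.7 over all regions shared by the 6 libraries. Of the 37 regions, 26 lay more than 3 kb from the start site of any protein-coding gene. Within 50 kb of its 5′ end, Olig1 had 6 such distal regions open in all 6 libraries, more than 99.3% of 21938 protein-coding genes. Olig2 had 4 (more than 94.8% of genes), Nkx6-2 had 3 (more than 87.7%) and Nkx2-2 had 2 (more than 73.6%), where the median gene had 1. The Olig1 and Olig2 counts draw in part on the same regions.

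The Olig1-Olig2 locus spans 146477 bp (chr16:91175457-91321933), with Olig2 at chr16:91225457-91228677 and Olig1 at chr16:91269772-91271933, both on the plus strand and 41094 bp apart. PROLIF replicates 1, 2 and 4 had 14, 14 and 11 peaks there, and DIFF replicates had 15, 13 and 13. The groups overlapped, and the means were 13.0 ± 1.73 in PROLIF and 13.7 ± 1.15 in DIFF (SD, n = 3), a difference of 0.667 that was smaller than the spread between libraries (two-sided exact permutation p = 0.8, adjusted p = 1.0 over the 8 values tested, where 0.1 is the smallest p that 3 against 3 allows). The peaks covered 9692, 9289 and 7905 bp in PROLIF and 8086, 8478 and 8997 bp in DIFF, a difference of -442 bp (exact permutation p = 0.5, adjusted p = 0.8). The peak names carry a data number in a lower or a higher range, and both ranges hold libraries of both states. The lower range holds PROLIF replicates 1 and 4 and DIFF replicate 1. The higher range holds PROLIF replicate 2 and DIFF replicates 2 and 4. Every difference within a range, here and below, therefore rests on 1 library of 1 of the states and does not separate range from library. The difference in peak number was 2.5 within the lower range and -1.0 within the higher range, and that in covered length was -712 and -552 bp.

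**Figure D1:**
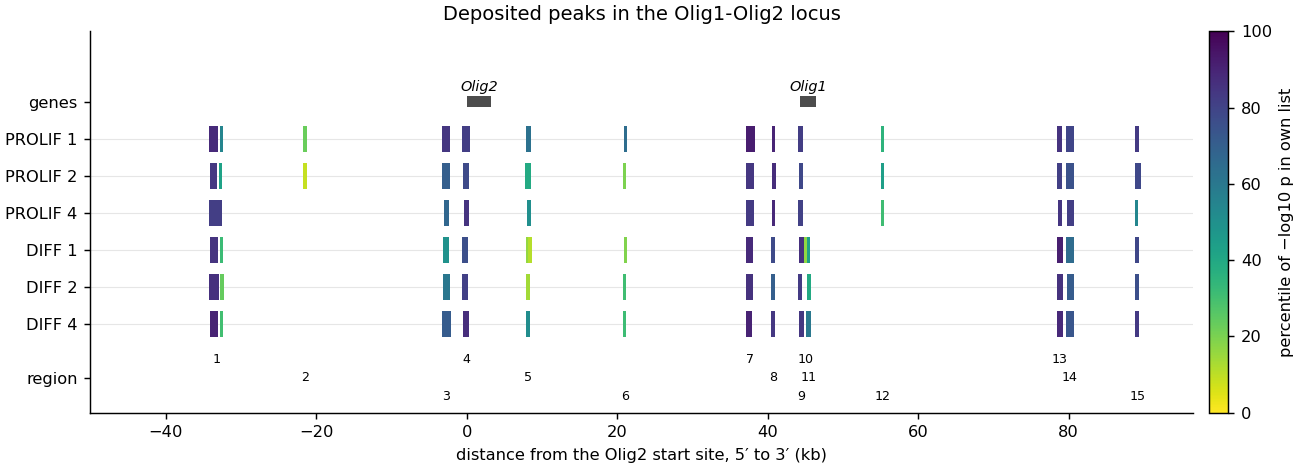
Each bar is a deposited peak in 1 library (rows), placed by its distance from the Olig2 start site in kb and coloured by its percentile of −log10 p in its own list, with genes above and region numbers below. Bars are drawn at least 0.45 kb wide. The best peaks of regions 1, 4, 7, 8, 9 and 13 were at percentiles of 70.3 or more in every row, region 11 held peaks only in the DIFF rows and region 12 only in the PROLIF rows.

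Covered length was also read by segment of the locus. Between the genes, peaks covered 2971, 2699 and 2413 bp in PROLIF replicates 1, 2 and 4 and 2001, 1999 and 2176 bp in DIFF. Over the Olig1 gene itself they covered 351, 312 and 382 bp in PROLIF and 1059, 784 and 1137 bp in DIFF. In both segments the groups did not overlap, and the directions were opposite. Over the Olig2 gene the peaks covered 419, 326 and 285 bp in PROLIF and 206, 206 and 285 bp in DIFF, so the groups met at 285 bp. These segments were singled out after their values were seen, so no test is given. No share over other segments of the genome was computed, and no lengths from lists of equal length. Separate groups here are therefore a description. Covered lengths overlapped between the states in the 50 kb before Olig2 (2676 to 3373 bp in PROLIF, 2570 to 3177 bp in DIFF) and in the 50 kb after Olig1 (2149 to 2789 bp in PROLIF, 2250 to 2368 bp in DIFF).

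Over the Olig1 start site, region 9 (chr16:91269461-91270325, summit 81 bp upstream of the single start site of this 1-exon gene) had a peak in all 6 libraries. Its percentile was 82.2, 78.2 and 80.5 in PROLIF replicates 1, 2 and 4 and 86.0, 82.8 and 84.3 in DIFF. Every DIFF library ranked above every PROLIF library, by 4.07 on average (80.3 ± 2.00 and 84.4 ± 1.62, SD, n = 3, exact permutation p of 0.1, which is the lowest that can be had, adjusted p = 0.4), which does not pass the threshold. DIFF was higher by 4.69 within the lower range of data numbers and by 5.33 within the higher range. The separation depended on list length: with every list cut to 60006 peaks the percentiles were 75.4, 75.8 and 80.5 in PROLIF and 83.4, 79.7 and 76.9 in DIFF, and the groups overlapped. Ranked against promoters alone, those of the genes that had one in the same library, Olig1 stood above 40.0% to 47.2% of them in PROLIF and above 38.6% to 49.0% in DIFF. Over all promoters open in all 6 libraries, the median percentile was 87.9, 84.6 and 83.1 in PROLIF replicates 1, 2 and 4 and 87.7, 87.3 and 89.9 in DIFF. Of these promoters, 26.0% were apart with DIFF higher, as Olig1 was.

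Further into Olig1, region 11 (chr16:91270573-91271202) was DIFF-only, with its summit in the 3′ UTR, 1012 bp from the start site. Its percentile was 43.5, 39.5 and 59.9 in DIFF replicates 1, 2 and 4, with fold enrichments over the local background of 3.1, 3.5 and 3.56. The pileups at the summit were 40, 35 and 64 reads. No PROLIF library had a peak there, which means a signal under the caller's threshold. The lists do not tell whether the chromatin there was closed. Region 10, a peak of DIFF replicate 1 alone at percentile 16.7, lay next to it in the coding exon. In DIFF, peaks thus lay over both the start and the later part of the gene, and in PROLIF over its start alone.

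At the Olig2 promoter the states overlapped. Region 4 (chr16:91224860-91225875, summit 98 bp upstream of the start site) had percentiles of 82.0, 77.4 and 84.9 in PROLIF replicates 1, 2 and 4 and 75.8, 81.2 and 87.1 in DIFF. DIFF minus PROLIF was -0.0958 there. Region 3 (chr16:91222142-91223312), 2767 bp upstream in an exon of the annotated gene Gm49614, is also within the promoter distance and was the stronger peak in PROLIF replicate 1, at 84.3. It ranged from 67.1 to 84.3 in PROLIF and from 49.1 to 71.1 in DIFF, and the overlap was lost with lists of equal length (66.9 to 78.3 in PROLIF, 39.5 to 57.6 in DIFF). With the best peak of each library the difference was -0.877 (82.2 ± 4.15 in PROLIF, 81.3 ± 5.66 in DIFF, SD, n = 3, exact permutation p = 0.9, adjusted p = 1.0). It was -8.83 within the lower range of data numbers and 6.69 within the higher range, and leaving out PROLIF replicate 1, PROLIF replicate 4 or DIFF replicate 1 turned its sign.

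**Figure D2:**
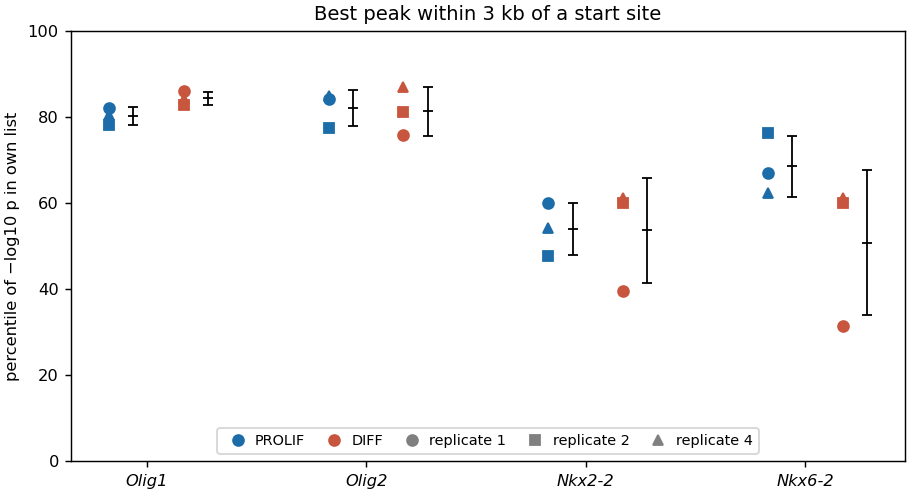
Percentile of −log10 p, within the library's own list, of the best peak within 3 kb of a start site of each gene. Points are libraries, blue for PROLIF and red for DIFF with a shape for each replicate, and black marks are the mean ± SD (n = 3). The states do not overlap for Olig1 (78.2 to 82.2 against 82.8 to 86.0) or Nkx6-2 (62.3 to 76.3 against 31.4 to 61.1), and overlap for Olig2 and Nkx2-2. Over all genes with a promoter peak in all 6 libraries, 26.0% were apart with DIFF higher and 4.79% with PROLIF higher.

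The highest-ranked distal regions of the Olig1-Olig2 locus stood above its promoters, with median percentiles of 85.5 to 86.9 beside 82.5 for region 9 and 81.6 for region 4. They were region 7 (chr16:91262551-91263714, 6766 bp upstream of Olig1 in an exon of the annotated gene Gm37016), region 1 (chr16:91191250-91193107, 33366 bp upstream of Olig2) and region 13 (chr16:91303871-91304671, 34551 bp downstream of the Olig1 start site in an intron of the annotated gene Gm15966). Region 8, described further on, had the same median as regions 1 and 13 at this rounding. Region 7 had percentiles of 92.1, 84.3 and 83.1 in PROLIF replicates 1, 2 and 4 and 88.1, 85.7 and 90.5 in DIFF. Region 1 had 87.9, 83.8 and 82.0 in PROLIF and 84.8, 86.2 and 90.5 in DIFF. In both the groups overlapped.

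Region 13 had percentiles of 85.2, 81.6 and 84.5 in PROLIF and 91.5, 85.8 and 88.5 in DIFF, a difference of 4.8 with no overlap. With lists of equal length its groups overlapped (79.6 to 84.5 in PROLIF, 83.1 to 89.9 in DIFF). Its neighbour, region 14 (chr16:91305055-91306150), also in an intron of Gm15966, went the other way, with 79.5, 74.9 and 81.7 in PROLIF and 64.9, 71.3 and 73.2 in DIFF, and its groups stayed apart with lists of equal length. Of these adjacent regions, region 13 thus lost its separation with lists of equal length and region 14 kept it.

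The region of this locus with separate groups and the largest difference was region 8 (chr16:91265964-91266511), 3616 bp upstream of the Olig1 start site. It had percentiles of 90.1, 87.3 and 88.4 in PROLIF replicates 1, 2 and 4 and 77.5, 70.3 and 83.6 in DIFF. DIFF minus PROLIF was -11.5 (88.6 ± 1.41 and 77.1 ± 6.68, SD, n = 3), and the groups stayed apart with lists of equal length. Its fold enrichment, which is not comparable between lists, was 7.31, 6.48 and 7.0 in PROLIF and 4.88, 5.08 and 5.64 in DIFF. Regions 8 and 14 were named after their values were seen, and no test is given for them. Region 5 (chr16:91233235-91234027), 8335 bp into the interval between the genes from the Olig2 start site, had a difference of -23.7 but overlapping values, 62.6, 39.4 and 50.7 against 16.4, 13.7 and 51.5.

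Region 12 (chr16:91280630-91280830), in an intron of Gm15966 and 10956 bp downstream of the Olig1 start site, was PROLIF-only. Its percentile was 35.3, 44.1 and 31.0 in PROLIF replicates 1, 2 and 4, with fold enrichments of 4.78, 5.33 and 4.42 and pileups of 18, 20 and 16 reads. The weakest regions of the 3 windows had a pileup of 12 reads in a library, so this region stood only a few reads above them.

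Nkx2-2 lies at chr2:147177546-147194243 on the minus strand and has annotated start sites at both a distal and a proximal position. PROLIF replicates 1, 2 and 4 had 10, 9 and 9 peaks in its window (chr2:147127546-147244243) and DIFF replicates had 8, 8 and 9. The groups met at 9, and the difference was -1.0 (9.33 ± 0.577 and 8.33 ± 0.577, SD, n = 3, exact permutation p = 0.3, adjusted p = 0.6), -1.5 within the lower and -0.5 within the higher range of data numbers. The peaks covered 5101, 4278 and 3787 bp in PROLIF and 2686, 2370 and 3708 bp in DIFF, groups that did not overlap, a length looked at after the counts were seen. With a window of 20 kb on each side the difference in peak number was 0.

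The Nkx2-2 promoter ranked below those of the Olig genes in every library. Its best peak within 3 kb of a start site was at percentile 60.0, 47.8 and 54.1 in PROLIF replicates 1, 2 and 4 and at 39.5, 60.1 and 61.3 in DIFF. These peaks were not of the same region: that of PROLIF replicate 4 and that of DIFF replicate 1 lay in region 8, at the distal start site, and the other 4 in region 7, near the proximal one. The difference therefore compares different regions, and each region is given on its own below. DIFF replicate 1 was the lowest of the 6 and the other DIFF libraries the highest, and the difference was -0.317 (54.0 ± 6.09 and 53.6 ± 12.3, SD, n = 3, exact permutation p = 1.0, adjusted p = 1.0). It was -17.5 within the lower range of data numbers and 12.9 within the higher range, and leaving out PROLIF replicate 1 or DIFF replicate 1 turned its sign. Among promoters of the same library it stood above 7.49% to 16.5%.

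The states were apart at the distal start site of Nkx2-2 and overlapped at the proximal one. Region 8 (chr2:147193685-147195308), at the distal start site, had percentiles of 54.7, 40.9 and 54.1 in PROLIF replicates 1, 2 and 4 and 39.5, 21.8 and 33.0 in DIFF. Every PROLIF library ranked above every DIFF library, also with lists of equal length, and DIFF minus PROLIF was -18.5. Where peaks had to cover 50% of a region, it no longer counted as open in all 6 libraries. Region 6 (chr2:147186243-147186564), with its summit in the 5′ UTR at a proximal start site, had 43.7, 27.8 and 42.3 in PROLIF and 36.2, 28.5 and 61.2 in DIFF, and its groups overlapped. Region 7 (chr2:147187820-147188668), 1747 bp upstream of it in an intron of the long transcripts, overlapped as well, at 60.0, 47.8 and 33.0 against 36.3, 60.1 and 61.3. Region 5, over the coding exon, had a peak in 2 PROLIF libraries and 1 DIFF library.

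Within the gene, regions 3 (chr2:147177692-147179023) and 4 (chr2:147180623-147181145) were the only distal regions of this window open in all 6 libraries, both in an intron. Region 3 ranged from 45.4 to 58.2 in PROLIF and from 24.3 to 51.9 in DIFF. Region 4 ranged from 17.1 to 52.6 in PROLIF and from 48.6 to 69.7 in DIFF. Both pairs of ranges overlapped. With lists of equal length region 4 was apart, at 7.97 to 34.6 in PROLIF and 38.9 to 55.5 in DIFF.

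The strongest one-state region of all 3 windows was Nkx2-2 region 1 (chr2:147144864-147145303), an intergenic PROLIF-only region 40984 bp beyond the nearest start site of Nkx2-2, on the 3′ side of the gene. Its percentile was 79.8, 67.3 and 63.4 in PROLIF replicates 1, 2 and 4, with fold enrichments of 12.8, 8.38 and 7.28 and pileups of 50, 32 and 27 reads. These ranks were above that of the Nkx2-2 promoter in each of the PROLIF libraries, and no DIFF library had a peak there. With lists of equal length the percentiles were 72.1, 63.7 and 63.4 and the region stayed PROLIF-only.

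**Figure D3:**
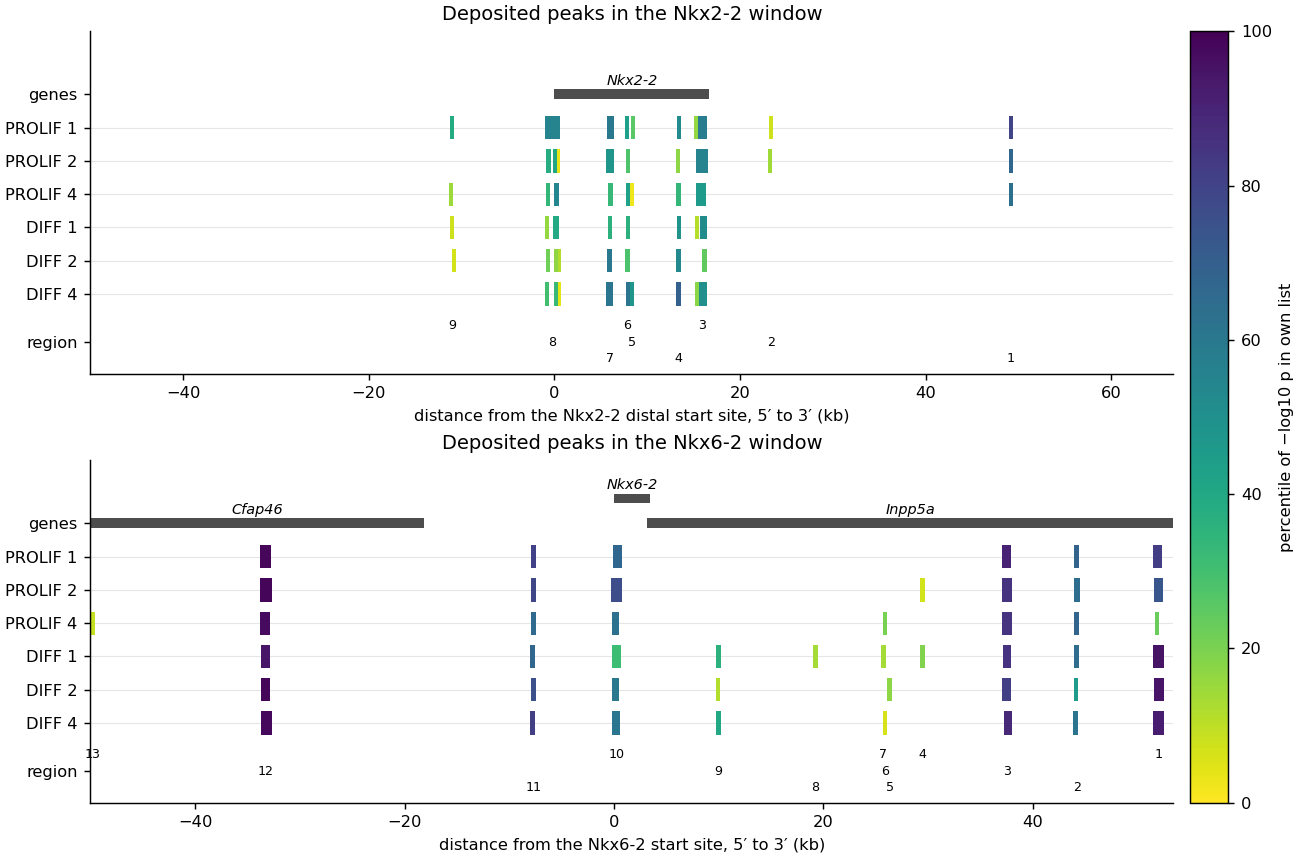
Deposited peaks by library in the Nkx2-2 window (top) and the Nkx6-2 window (bottom), placed by distance in kb from the distal Nkx2-2 start site or the Nkx6-2 start site and read 5′ to 3′ along the gene, with colour for the percentile in the library's own list. Bars are drawn at least 0.45 kb wide. Nkx2-2 region 1 held peaks only in the PROLIF rows, Nkx6-2 region 9 only in the DIFF rows, and Nkx6-2 region 1 was darker in the DIFF rows (91.8 to 95.2) than in PROLIF (23.0 to 82.4).

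Nkx6-2 lies at chr7:139579376-139582797 on the minus strand, with a 3′ end that overlaps Inpp5a. PROLIF replicates 1, 2 and 4 had 6, 7 and 8 peaks in its window (chr7:139529376-139632797) and DIFF replicates had 10, 8 and 8. The groups met at 8, and the difference was 1.67 (7.0 ± 1.0 and 8.67 ± 1.15, SD, n = 3, exact permutation p = 0.3, adjusted p = 0.6), 3.0 within the lower and 1.0 within the higher range of data numbers. Of the 13 regions, 4 had a peak in 1 library, at percentiles of 8.8 to 16.9.

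The Nkx6-2 promoter ranked lower in every DIFF library than in any PROLIF library. Region 10 (chr7:139582051-139583041, summit 35 bp upstream of a start site) had percentiles of 67.1, 76.3 and 62.3 in PROLIF replicates 1, 2 and 4 and 31.4, 60.0 and 61.1 in DIFF. DIFF replicates 2 and 4 lay to PROLIF replicate 4 and DIFF replicate 1 far below. The difference was -17.8 (68.6 ± 7.12 and 50.8 ± 16.8, SD, n = 3, exact permutation p of 0.1, which is the lowest that can be had, adjusted p = 0.4), which does not pass the threshold, and over the library left out it ran from -22.9 to -8.05. It was -33.3 within the lower range of data numbers and -15.8 within the higher range. The groups stayed apart with lists of equal length (54.6 to 73.7 and 18.5 to 52.9), and among promoters of the same library it stood above 20.6%, 36.8% and 22.7% in PROLIF and above 5.55%, 15.6% and 14.4% in DIFF.

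The opposite order was seen at the far end of the window. Region 1 (chr7:139530255-139531335), in an intron of Inpp5a, 7065 bp from the nearest annotated start site, that of an Inpp5a transcript beginning within the gene, and 51867 bp from that of Nkx6-2, had percentiles of 82.4, 73.4 and 23.0 in PROLIF replicates 1, 2 and 4 and 95.2, 94.9 and 91.8 in DIFF. DIFF was higher by 34.4 on average, with groups apart (59.6 ± 32.0 and 94.0 ± 1.87, SD, n = 3), and PROLIF replicate 4 lay far below the rest. In that library the peak covered 245 of 1081 bp, so with a cover of 50% asked for the region no longer counted as open in all 6 libraries. The pileup was 73, 52 and 18 reads in PROLIF and 129, 135 and 152 reads in DIFF. These reads are not adjusted for depth, and the background pileup was highest in DIFF replicate 4 (6.01 reads). The peak lists do not tell to which gene this region belongs.

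The other distal regions with high ranks in this window overlapped between the states in the full lists. Region 3 (chr7:139544748-139545790), also in an Inpp5a intron, ranged from 85.0 to 90.3 in PROLIF and from 81.3 to 88.8 in DIFF, and was apart with lists of equal length (83.6 to 86.7 in PROLIF, 78.0 to 83.5 in DIFF). Region 11 (chr7:139590227-139590786), 7718 bp upstream of Nkx6-2, ranged from 65.8 to 80.3 in PROLIF and from 67.4 to 81.6 in DIFF. Region 12, at a promoter of Cfap46, had the highest median percentile of the 37, with values of 94.3 to 98.6. DIFF-only region 9 (chr7:139572754-139572942), in an Inpp5a intron 9912 bp downstream of the Nkx6-2 start site, was weak, with percentiles of 36.2, 11.7 and 40.2 in DIFF replicates 1, 2 and 4 and pileups of 19, 13 and 26 reads, and with lists of equal length it was lost from DIFF replicate 2.

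Over the 21 regions open in all 6 libraries, the states were apart in 7. PROLIF ranked higher in 4 (19.0%, beside 11.7% of all such regions of the genome): Olig1-Olig2 regions 8 and 14, Nkx2-2 region 8 and Nkx6-2 region 10. DIFF ranked higher in 3 (14.3%, beside 21.1%): Olig1-Olig2 regions 9 and 13 and Nkx6-2 region 1. Counts of this size do not set the 4 genes apart from the genome. With lists of equal length, 6 of 20 ranked higher in PROLIF and 2 in DIFF, beside 17.4% and 20.6% of such regions of the genome. The members of the counts changed: Olig1-Olig2 region 3 and Nkx6-2 region 3 joined those higher in PROLIF, Nkx2-2 region 4 joined those higher in DIFF, and Olig1-Olig2 regions 9 and 13 dropped out. Without PROLIF replicate 1 the count higher in DIFF was 6, and without DIFF replicate 1 it was 5. Groups separate more easily with a library left out, and no share of the genome was computed for that setting. These rises are therefore not read.

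**Figure D4:**
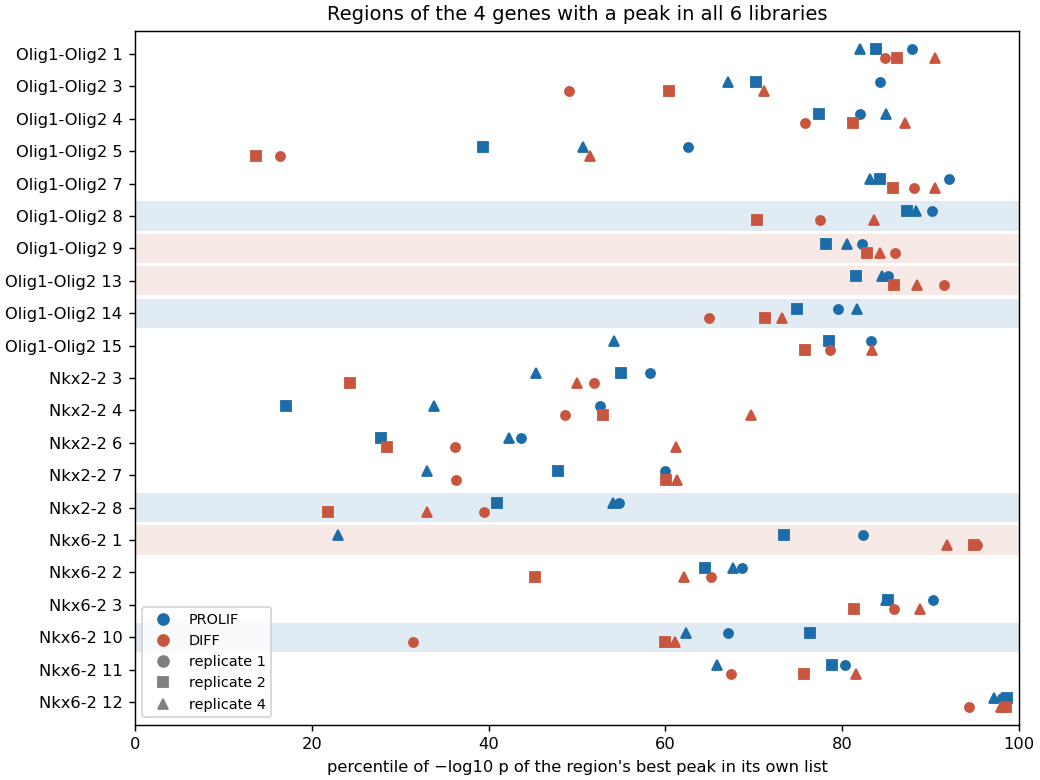
Percentile of −log10 p of the best peak of each of the 21 regions with a peak in all 6 libraries (rows), with PROLIF in blue, DIFF in red and a shape for each replicate. Shaded rows are the 7 regions whose groups do not overlap, 4 higher in PROLIF (blue) and 3 higher in DIFF (red). Most Olig1-Olig2 rows lie to the right of the Nkx2-2 rows.

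The regions were also read for short sequence words on both strands, within 100 bp of each summit on either side. The words were ACAAAG or ACAATG for SOX factors, CAGCTG and CAGATG for basic helix-loop-helix factors, TGACTCA or its complement TGAGTCA for AP-1, TTGGCA for NFI, CACTTG or CACTTA for NK2 homeodomain factors, GACCACCCA for GLI factors and CCANNAGNNGGCA for CTCF, and no word contains another. A match is a description and not a bound site. A SOX word was found in 17 of the 37 regions (45.9%, beside 29.1% of all regions of the genome), and in 10 of the 21 regions open in all 6 libraries (47.6%, beside 26.0%). CAGCTG was in 10 (27.0%, beside 19.6%), CAGATG in 8 (21.6%, beside 17.3%), NFI in 9 (24.3%, beside 18.3%) and NK2 in 9 (24.3%, beside 17.9%).

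AP-1 was in 4 of the 37 regions (10.8%, beside 5.76% of all regions). The 4 were both PROLIF-only regions, Nkx2-2 region 8, which ranked higher in PROLIF, and Olig1-Olig2 region 2, which had a peak in 2 PROLIF libraries and in no DIFF library. None of the 2 DIFF-only regions and the 3 higher in DIFF held this word, counts too small to be set against the genome. Over the whole genome, the share that held it was 27.8% where peaks were PROLIF-only and 2.48% where they were DIFF-only. It was 4.55% in regions open in all 6 libraries. No share was computed for regions that ranked higher in either state or had peaks in part of the libraries of a state. GLI and CTCF words were in 0 of 37, beside 0.136% and 4.69% of all regions. Over the whole 300-base RefSeq entries, the Nkx2-2 promoter held a CAGATG and an NK2 word (17.2% and 21.3% of all such entries do), the Olig2 promoter held a SOX word (28.6% do) beyond the stretch printed above, and the Nkx6-2 promoter held none of the words.

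The other genes of the lineage give the setting of the 4. A peak at the promoter in all 6 libraries was found for 25 of 30 genes of the pathway and for 4 of 4 members, beside 64.4% of 21938 protein-coding genes. Every gene of the upstream signal did (6 of 6), which are Shh, the ligand, Ptch1, its receptor, Smo, the transducer, and the effectors Gli1, Gli2 and Gli3. Of 18 patterning and precursor regulators 15 did, and of 6 precursor genes 4 did, Pdgfra, Cspg4, Ptprz1 and Bcas1. Sox10, a factor of committed oligodendrocyte cells, and Enpp6, a gene of newly formed oligodendrocytes, had a promoter peak in no library. Nkx2-9, Zfp488 and Gpr17 had one in some libraries.

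Of the 25, 1 had separate groups higher in PROLIF and 5 had them higher in DIFF, beside 4.79% and 26.0% of the 14126 genes open at the promoter in all 6 libraries. With lists of equal length the split of the 25 was 4 and 4, beside 9.18% and 25.0%, and Nkx6-1, Shh and Myrf kept their side. The first was Nkx6-1, the close relative of Nkx6-2, with percentiles of 72.1, 72.6 and 60.6 in PROLIF replicates 1, 2 and 4 and 54.3, 32.9 and 47.7 in DIFF. Both Nkx6 genes therefore ranked lower in every DIFF library. The 5 were Shh, Ptch1, Sox9, Id4 and Myrf, a regulator of myelin genes. Shh had 37.1, 49.4 and 24.1 in PROLIF and 55.7, 59.9 and 73.1 in DIFF. Among the members, Nkx6-2 was apart in the PROLIF direction and Olig1 in the DIFF direction, and with lists of equal length Nkx6-2 alone.

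The labelled cell type was checked by its markers. Promoters were open in all 6 libraries for 7 of 7 markers of neural stem and progenitor cells, 3 of 5 of neurons, 4 of 4 of astrocytes, 0 of 5 of microglia and 1 of 4 of endothelial cells. Over all protein-coding genes the share was 64.4%. Dcx, Cx3cr1, Itgam, Ptprc, Cldn5 and Tek had a promoter peak in no library. The microglial markers Aif1 and Tmem119 and the neuronal marker Rbfox3 had one in 5 libraries each. Of the endothelial markers, Kdr had one in all 6 and Pecam1 in the 3 PROLIF libraries alone. Separate groups higher in DIFF were found for 3 of the 4 astrocyte markers, Gfap, Aqp4 and S100b, and for the neuronal markers Tubb3 and Snap25, and separate groups higher in PROLIF for Nes. Over all genes open at the promoter in all 6 libraries, 26.0% were apart with DIFF higher and 4.79% with PROLIF higher. For the markers, no values with lists of equal length are given. The part of these cell types in the results above was not tested. In bulk samples, a change in the share of a cell type and a change within cells cannot be told apart.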

How the data were processed

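ATAC-seq libraries of Srr2del/del cultures, 3 PROLIF and 3 DIFF, were grouped by the state and replicate number in the labels, whose treatment entries speak of RNA while the molecule is given as genomic DNA. The authors removed adapters (Cutadapt) and low-quality bases (Trimmomatic), aligned the pairs with Bowtie2 to GRCm38 (mm10), flagged duplicates with Picard, and used MACS2 for narrow peaks of each library with no model and an FDR of 0.05. Tool versions, the read extension, transposase shifting and blacklists are not given in the sources used here, and each can move peak edges. The deposited lists give a score, a fold enrichment over background within the library, and −log10 p and q values. The deposited −log10 p ranked peaks within a list, and the deposited fold and score are not comparable between lists. The labels call the samples 2 days in vitro, while the design text of the series says 3 for the proliferating cultures.

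Peaks were merged across libraries at an overlap of 1 bp, and annotated with GENCODE M21 (the study used another release). One-state regions (PROLIF-only, DIFF-only) had peaks in all 3 libraries of that state and in 0 of the other. Promoters were 3 kb around start sites. Pileup and background were solved from fold and p under the Poisson model of the caller, and came back whole (within 0.02) for at least 99.9867% of peaks. Read totals were not used here. States were compared by two-sided exact permutation over libraries, with Benjamini-Hochberg adjustment over 8 values. Named regions were those at the members' promoters, all one-state regions and, in each window, the 3 highest-ranked distal regions open in all 6 libraries, and others were named after their values were seen. Members, gene lists and rules were chosen with earlier results of these data known. The code was tested on simulated lists. A further marker list is not reported here.

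As alternatives, peaks were held to q of 0.01 or 0.001, lists were shortened to 60006 peaks, and windows of 20 kb, promoters of 1 kb, a cover of 50% of a region, leaving out single libraries and a replicate block were tried. Promoter sequences came from RefSeq (GRCm38.p6) and matched 3 of 4 members. Scripts ran in Python 3.11.15 with pandas 2.3.3, numpy 2.4.6, scipy 1.17.1, statsmodels 0.14.6 and matplotlib 3.10.9.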

Additional observations from a re-analysis of the deposited data

How the results depend on the processing

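Of 140 values under the alternatives, 125 kept their direction, or stayed within 1.5 times the count reported. Their side of the threshold was compared too, but it could not change. No permutation p could fall under 0.1, and none for pairs under 0.25. Among the 125 are the 8 tested differences under the replicate block, whose direction was fixed as well. With lists of equal length the Olig1 promoter kept its direction and is among the 125, although its groups then overlapped. With lists cut to the length of the shortest, the difference in peaks of the Olig1-Olig2 locus was 0.0 and DIFF-only regions numbered 1, as they also did with 50% of a region covered. With windows of 20 kb the difference in peaks around Nkx2-2 was 0.0. No source ties a replicate number to the same culture in both states. Over 39088 autosomal regions, deviations from the state mean had correlations of 0.055, 0.153 and 0.0122 between same-numbered libraries and -0.113 to 0.0614 otherwise, and not every library correlated best with its own number. Under the replicate block, with same-numbered libraries taken as pairs, PROLIF-only regions numbered 4 and the other counts made under it stayed within 1.5 times those reported. The mean of paired differences equals the difference of means, so the direction of the 8 tested values could not change. The sign-flip p of the Olig1 and Nkx6-2 promoters was 0.25, the smallest that 3 pairs allow. Leaving out 1 library in turn, the DIFF minus PROLIF difference ran from -0.333 to 1.17 peaks in the Olig1-Olig2 locus, from -970.0 to -76.7 bp in its covered length, from -1.33 to -0.667 peaks around Nkx2-2, from 1.0 to 2.17 peaks around Nkx6-2, and in promoter percentile from 3.02 to 5.01 for Olig1, -3.75 to 1.91 for Olig2, -4.16 to 6.75 for Nkx2-2 and -22.9 to -8.05 for Nkx6-2. Regions in all libraries numbered 21 to 22, PROLIF-only 2 to 4, DIFF-only 2, higher in PROLIF 4 to 6 and higher in DIFF 3 to 6. With a library left out these classes are easier to reach, so rises in the counts are not read. The Olig2 and Nkx2-2 promoter values turned sign with 1 library left out (0.159, 0.478 and 1.91 for Olig2, 2.69 and 6.75 for Nkx2-2), as did peaks of the Olig1-Olig2 locus without PROLIF replicate 4 (-0.333). The cause was not tested. The lists hold no signal under the threshold, and 3 libraries a state cannot reach p under 0.1.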
